A study of Mus musculus with 10 samples.

Results

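Glycolysis and pyruvate genes were described in fetal mouse lung at E18.5, with each whole lung on 1 Affymetrix array. The list held 40 genes that take glucose into the cell, break it down to pyruvate, and send pyruvate to lactate or into the mitochondrion, and 36 of them had a value among the 17919 genes measured. A gene had a value if at least 1 probe set was annotated to its symbol alone, and where there were several, the one of highest mean level stood for it. Eno1, Gpi1 and Pfkfb1 had no such probe set, and Aldoa shared its probe set with Aldoart1, so these 4 have no value here. The genes were listed by their place in the pathway, with results of these data already known. Eno3 itself was chosen from its measured difference between these groups, so that difference is a description and carries no p.

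The control group was 5 lungs labelled Shhcre, and the knockout group was 5 lungs labelled Shhcre and Hdac3 fl/fl, on a background of C57BL/6 and 129X1,129S6. Shhcre is a Cre recombinase under the control of Shh, which is active in lung epithelium, so both groups carry Cre. Mothers were Hdac3 fl/fl and sires Hdac3 fl/+ with Shhcre, and the Hdac3 alleles of the controls are not labelled. A pup of these parents with Shhcre would be Hdac3 fl/fl, the knockout genotype, or fl/+. Shhcre controls from this cross would then be fl/+, with 1 floxed allele that Cre can delete in the epithelium. In that case the comparison is of loss of both alleles against loss of 1, and not against intact Hdac3. The question was which genes depend on Hdac3, a histone deacetylase of nuclear corepressor complexes, in the epithelium of the late fetal lung.

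Glycolysis splits glucose into pyruvate in the cytosol. Several of its steps are served by related enzymes from separate genes, and tissues differ in which of them they use. Enolase turns phosphoglycerate into phosphoenolpyruvate; Eno1 is the widespread form, Eno2 the neuronal and neuroendocrine form, and Eno3 the form of muscle. Pyruvate then becomes lactate, or enters the mitochondrion, where pyruvate dehydrogenase makes acetyl-CoA and pyruvate carboxylase, encoded by Pcx, makes oxaloacetate.

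The 250 bases before each transcription start in the promoter set used are shown for the enolases with a value and for Pcx. Eno3 and Pcx had the largest changes of the list, and Eno2 is the enolase to set beside Eno3. The sequences are from RefSeq on GRCm38.p6, written 5′ to 3′ on the gene's strand. The 3 motifs searched, on both strands, were ACGTG and GCGTG, the core of the hypoxia response element, and AGGTCA, the half-site of many nuclear receptors. Capitals mark every match, and a match to ACGTG can also be part of CACGTG.
Eno3, chr11:70656926-70657175, plus strand: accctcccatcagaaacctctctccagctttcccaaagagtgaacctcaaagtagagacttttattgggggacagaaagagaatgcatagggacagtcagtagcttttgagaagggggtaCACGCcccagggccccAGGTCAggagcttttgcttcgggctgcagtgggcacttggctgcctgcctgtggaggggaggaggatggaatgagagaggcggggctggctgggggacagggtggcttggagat
Eno2, chr6:124769674-124769923, minus strand: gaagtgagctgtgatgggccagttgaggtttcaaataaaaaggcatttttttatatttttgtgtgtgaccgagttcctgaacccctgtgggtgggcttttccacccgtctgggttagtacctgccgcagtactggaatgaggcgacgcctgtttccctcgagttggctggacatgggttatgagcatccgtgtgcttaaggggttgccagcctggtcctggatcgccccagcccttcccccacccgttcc
Pcx, first start, chr19:4510222-4510471, plus strand: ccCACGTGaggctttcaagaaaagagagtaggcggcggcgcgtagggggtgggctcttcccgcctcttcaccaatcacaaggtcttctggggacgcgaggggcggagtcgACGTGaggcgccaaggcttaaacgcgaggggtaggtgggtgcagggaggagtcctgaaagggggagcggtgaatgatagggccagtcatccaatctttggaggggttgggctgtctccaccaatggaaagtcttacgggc
Pcx, second start, chr19:4594069-4594318, plus strand: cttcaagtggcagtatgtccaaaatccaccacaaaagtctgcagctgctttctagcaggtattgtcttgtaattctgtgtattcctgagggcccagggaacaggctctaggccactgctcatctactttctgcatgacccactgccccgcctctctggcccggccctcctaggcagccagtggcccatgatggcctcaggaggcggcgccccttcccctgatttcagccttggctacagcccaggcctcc
The Eno3 window lies inside the gene's RefSeq span (70653125 to 70662513), so it precedes an internal start and not the first base of that span. The second Pcx window also lies inside its gene. The Eno3 window held 1 GCGTG, on the other strand, and 1 AGGTCA. The Eno2 window and the second Pcx window held none of the 3 motifs, and the first Pcx window held ACGTG. Promoter windows were given for 37 of the 40 listed genes, 58 windows in all. ACGTG lay in 37.9% of these windows against 16.6% of all 32851 windows of the same length, and GCGTG in 46.6% against 28.2%. AGGTCA lay in 15.5% of the members' windows and in 14% of all windows. The windows were not matched for base content, ACGTG and GCGTG hold CG while AGGTCA does not, and some genes have several windows. Whether base content has a part in these shares was not tested. A match is a run of letters and not a binding site.

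Values are log2 levels, so a difference of 1 is a factor of 2, and the error of a difference is its standard error (SE). Eno3 was measured at 9.56, 9.50, 9.47, 9.53 and 9.73 in controls 1 to 5 and at 10.81, 10.60, 10.75, 10.51 and 10.67 in knockouts 1 to 5. Every knockout lung lay above every control lung, with a gap between the groups that was wider than the range within either. Control lungs averaged 9.56 ± 0.10 and knockout lungs 10.67 ± 0.12 (SD, n = 5 per group), a difference of 1.11 ± 0.07 on the log2 scale or 2.16-fold. Lungs carry the numbers 1 to 5 in both groups, and within same-numbered lungs the difference ran from 0.94 to 1.28. Of all 17919 genes, Eno3 had the 21st highest difference.

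**Figure D1:**
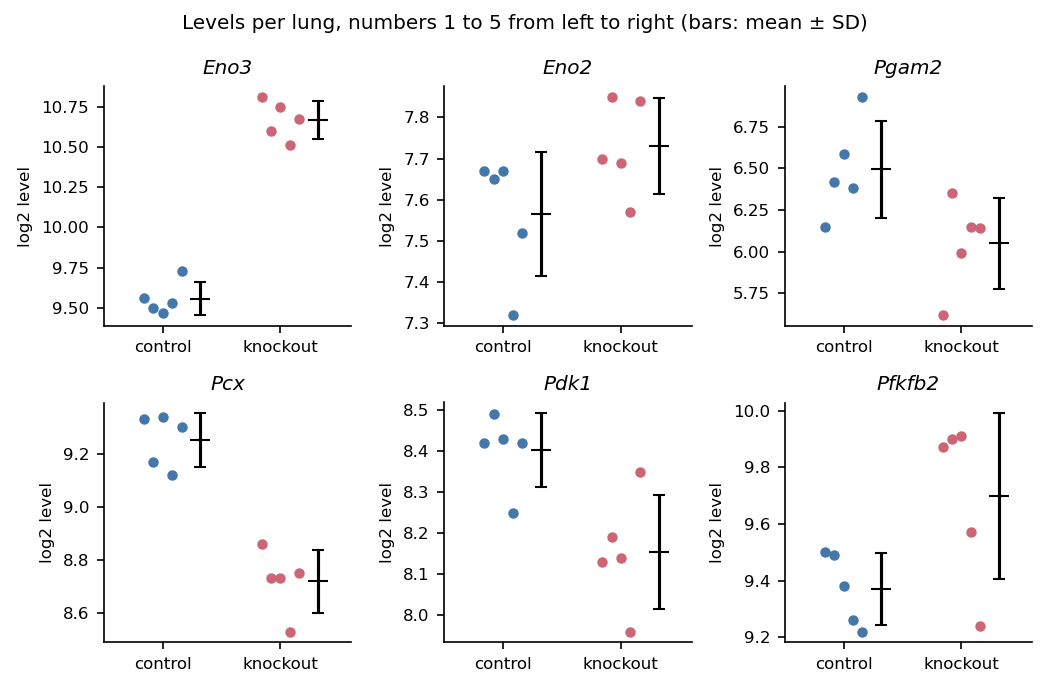
Log2 levels of 6 members in each of the 5 control and 5 knockout lungs (points, numbers 1 to 5 from left to right), with the group mean ± SD beside them. The groups of Eno3 and Pcx do not overlap, while those of Eno2, Pgam2, Pdk1 and Pfkfb2 do.

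Eno2 was measured at 7.67, 7.65, 7.67, 7.32 and 7.52 in the controls and at 7.70, 7.85, 7.69, 7.57 and 7.84 in the knockouts. The groups overlapped, since knockout 4 lay below 3 of the controls. Its difference was 0.16 ± 0.08 (SE), and it was not called (limma adjusted p = 0.41, and 0.186 with the lung number as a block). Within each lung, the level of Eno2 minus that of Eno3 ran from -2.21 to -1.81 in controls and from -3.11 to -2.74 in knockouts, so the difference of Eno3 was larger than that of Eno2 by 0.95. These values compare changes of 2 probe sets and do not say which enolase is more abundant. Eno4, an enolase-like gene outside the list, had a log2 change of -0.21 ± 0.06 (adjusted p = 0.0873).

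The genes beside Eno3 on the chromosome had smaller differences. The 5 measured genes on either side in the RefSeq gene table were taken. Without a block, limma called 0 of these 10, at an adjusted or an unadjusted p under 0.05. With the number as a block it called 0 at an adjusted p under 0.05. Over all genes limma called 3.12%, and 4.72% with the block, while 13.5% had an unadjusted p under 0.05. At these shares, 0 calls among 10 genes do not set this stretch apart. The changes of the 10 genes ran from -0.10 to 0.22. Pfn1, which encodes the actin-binding protein profilin and whose span overlaps that of Eno3 in this table, went from 11.33 ± 0.09 to 11.38 ± 0.07 (SD, n = 5 per group). Spag7, the next gene on the other side, went from 8.72 ± 0.09 to 8.73 ± 0.12. The highest of the changes was that of Inca1 (0.22, adjusted p = 0.465), whose means of 5.83 and 6.06 were below 6.3, the level that 20% of values do not reach.

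**Figure D2:**
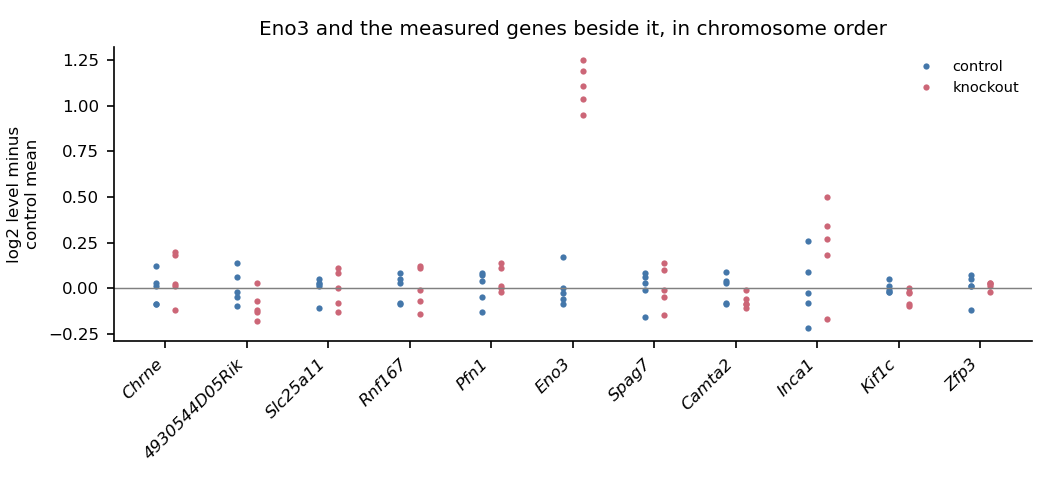
Log2 level minus the control mean (vertical axis) for Eno3 and the 5 measured genes on either side of it, in chromosome order, with 1 point per control or knockout lung. Eno3 has a mean change of 1.11 and groups that do not overlap, and the mean changes of the 10 other genes run from -0.10 to 0.22.

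Markers of muscle, where Eno3 is best known, were set beside this difference. Of 12 measured skeletal muscle markers, limma called 0, with or without the number as a block, and 2 reached an unadjusted p below 0.05. Their mean level per lung ran from 6.92 to 7.08 in controls and from 6.92 to 7.07 in knockouts, their median change was 0.00, and 3 of the 12 lay under 6.3. Ckm, muscle creatine kinase, stood at 8.24 ± 0.11 in controls and 8.24 ± 0.11 in knockouts (SD, n = 5 per group). Of 10 heart muscle markers limma called 0, with 1 at an unadjusted p below 0.05. Their mean level ran from 8.95 to 9.12 in controls and from 8.88 to 9.08 in knockouts. Over all genes limma called 3.12%, and 4.72% with the block, while 13.5% had an unadjusted p below 0.05. The counts of both muscle lists are close to these shares. Pygm, the muscle glycogen phosphorylase and the highest of the skeletal markers, had a change of -0.16 ± 0.07 (adjusted p = 0.335).

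The tissue label and the level of Hdac3 were looked at on the same arrays. The surfactant gene Sftpc stood at 13.46 ± 0.02 in controls and 13.44 ± 0.04 in knockouts (SD, n = 5 per group). Hdac3 was lower in the knockout by 0.31 ± 0.07 (SE, log2 change -0.31, limma adjusted p = 0.0203), a call that ended without control 2 (0.0526) or control 5 (0.0545). It stood at 80.4% of its control level in whole lung, where controls of the stated cross would themselves carry 1 floxed allele. Which part of Hdac3 the probe set covers is not known, so the extent of the deletion cannot be read from this value. Of 10 epithelial markers Krt8, a simple-epithelium keratin, rose by 0.74 ± 0.06 (adjusted p = 1.75e-05) and 0 fell. Of 8 endothelial and 10 fibroblast and smooth muscle markers, limma called 0, while 0 and 1 reached an unadjusted p below 0.05; blocking on the number added Car4 (0.32, adjusted p = 0.0172) and Cnn1 (-0.41, adjusted p = 0.0275). Of 6 liver markers and of 5 markers of neurons and glia, limma called 0 with or without the block, and 1 and 0 reached an unadjusted p below 0.05. Beside these marker counts, the shares over all genes were 3.12% called, 4.72% with the block and 13.5% unadjusted. In whole lung, fewer cells of a type and less RNA per cell cannot be told apart.

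Apart from Eno3, 3 members (Pcx, Pgam2 and Pfkfb2) had differences of 0.25 or more in size before rounding, and Pdk1 (-0.2479) lay just under that. Of the other 35 members, 0 rose and 1, Pcx, fell by limma at an adjusted p under 0.05, which is 2.86% of them, beside 3.12% of all genes (1.54% higher and 1.58% lower). With the number as a block 1 rose (Pfkfb2) and 3 fell (Pcx, Pgam2 and Pdk1), 11.4% of the members beside 4.72% of all genes (2.28% higher and 2.44% lower). With lungs 1 to 3 and lungs 4 and 5 as the blocks 1 rose (Pfkfb2) and 2 fell (Pcx and Pfkl), 8.57% of the members beside 5.08% of all genes (2.54% in each direction). The unadjusted p was under 0.05 for 10 of the 35 (28.6%) and for 13.5% of all genes. By mean, 17 of the 35 were higher and 18 lower, 20 changed by under 0.1, and the median size of a change was 0.08, beside 0.06 over all genes. The list was made with results known, so these counts are a description.

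**Figure D3:**
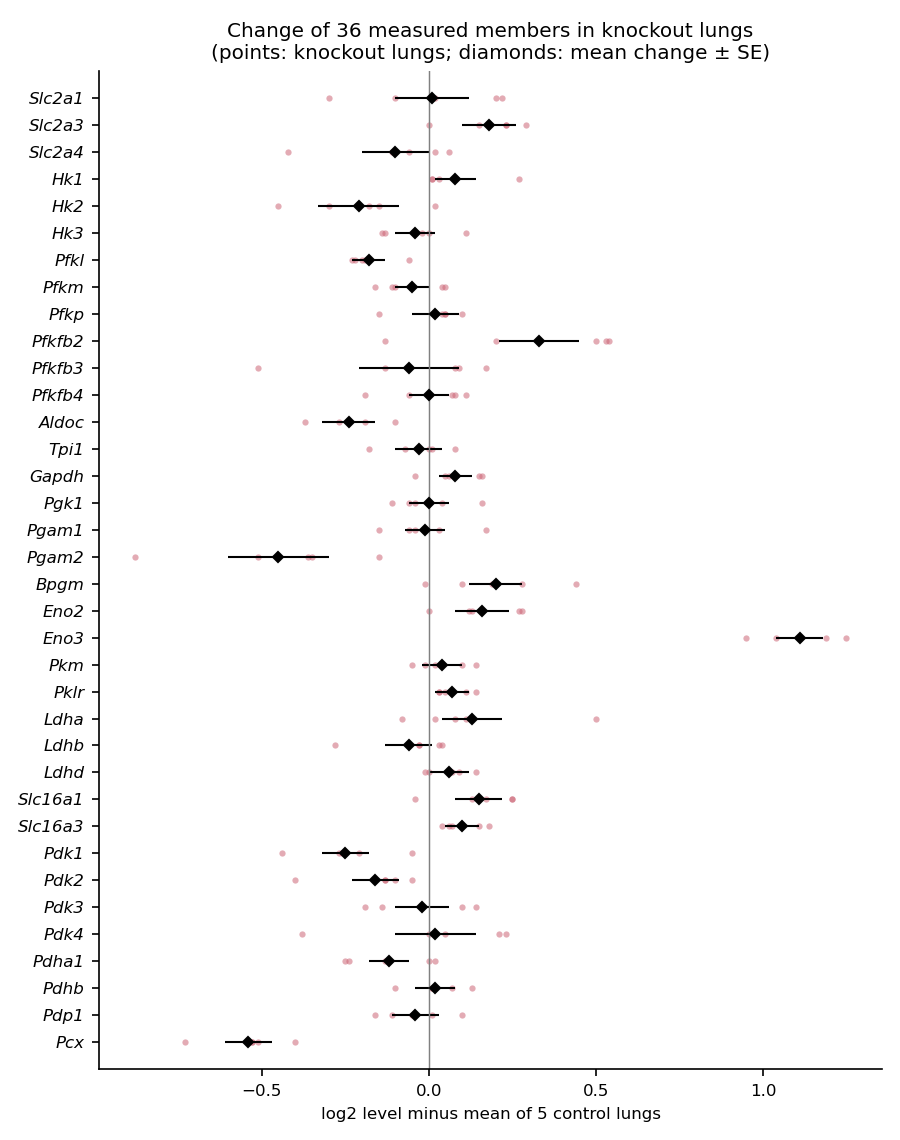
Log2 level minus the mean of the 5 control lungs (horizontal axis) for the 36 members with a value, in order from glucose uptake to pyruvate entry into the mitochondrion. Points are the 5 knockout lungs and diamonds the mean change ± SE; Eno3 has the highest mean change (1.11) and Pcx the lowest (-0.54), followed by Pgam2 (-0.45), whose knockout lungs spread widely.

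Glucose enters the cell through the transporters Slc2a1, Slc2a3 and Slc2a4 and is trapped by the hexokinases Hk1, Hk2 and Hk3. None of these 6 was called by limma, with or without the block. Slc2a1, the basal transporter, differed by 0.01 ± 0.11, with a 95% interval from -0.23 to 0.25. Slc2a3 went from 6.79 ± 0.16 to 6.97 ± 0.11 (SD, n = 5 per group), a difference of 0.18 (adjusted p = 0.333). Slc2a4, the insulin-responsive transporter, had -0.10 ± 0.10. Hk2, the inducible hexokinase, went from 8.58 ± 0.26 to 8.37 ± 0.18, a difference of -0.21 ± 0.12, and was lower in the knockout in all 5 same-numbered pairs (by -0.32 to -0.09; adjusted p = 0.514, and 0.056 with the block). Hk1 differed by 0.08 ± 0.06 and Hk3, a hexokinase of leukocytes, by -0.04 ± 0.06. Of 12 leukocyte markers, limma called 0, beside 3.12% of all genes, and 4 reached an unadjusted p below 0.05, beside 13.5%. Laptm5 was called lower by limma with the block (-0.27, adjusted p = 0.0227), where 4.72% of all genes were called. The mean level of the 12 ran from 8.11 to 8.23 in controls and from 7.98 to 8.19 in knockouts.

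Phosphofructokinase commits sugar to glycolysis, and its liver (Pfkl), muscle (Pfkm) and platelet (Pfkp) forms come from separate genes. Pfkl was measured at 9.93, 9.96, 9.85, 9.92 and 9.97 in controls and at 9.73, 9.74, 9.70, 9.71 and 9.87 in knockouts. Knockouts 1 to 4 lay below every control, and knockout 5 lay between controls 3 and 4. The difference was -0.18 ± 0.05 (SE, adjusted p = 0.0778, and 0.0619 with the block), and without knockout 5 it was -0.21 and called (adjusted p = 0.0253). Pfkl was not called with any other lung left out (limma adjusted p from 0.0886 to 0.174). Pfkm and Pfkp differed by -0.05 ± 0.05 and 0.02 ± 0.07.

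The Pfkfb enzymes make and remove the particular fructose bisphosphate that is the strongest activator of phosphofructokinase, and not the one that phosphofructokinase makes. Pfkfb2, known from heart and other tissues, was measured at 9.50, 9.49, 9.38, 9.26 and 9.22 in controls and at 9.87, 9.90, 9.91, 9.57 and 9.24 in knockouts. Knockouts 1 to 4 lay above every control and knockout 5 lay among the lowest controls. The difference was 0.33 ± 0.12 (SE; adjusted p = 0.221). With the number as a block Pfkfb2 was called higher (0.33 ± 0.07, adjusted p = 0.0373), and so it was without knockout 5 (0.44, adjusted p = 0.0156). With any other lung left out Pfkfb2 was not called (limma adjusted p from 0.24 to 0.41). Pfkfb3, the inducible form, differed by -0.06 ± 0.15 with a 95% interval from -0.37 to 0.26, and Pfkfb4 by -0.00 ± 0.06.

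In glycolysis from aldolase to pyruvate kinase, none of the 10 measured members besides Eno3 was called without a block. Pgam2, the muscle phosphoglycerate mutase, was measured at 6.15, 6.42, 6.59, 6.38 and 6.93 in controls and at 5.62, 6.35, 5.99, 6.15 and 6.14 in knockouts. The groups overlapped, although each knockout lay below the control mean. The difference was -0.45 ± 0.15 (SE; adjusted p = 0.166), and with the block Pgam2 was called lower (adjusted p = 0.0406). Its means of 6.50 and 6.05 lay on either side of 6.3, and with lower values set to it the difference was -0.22 (adjusted p = 0.475), so its size is uncertain. Eno3 and Pgam2, both muscle forms, thus stood on opposite sides of 0. Pgam1, the widespread mutase, differed by -0.01 ± 0.06.

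Aldoc, the brain form of aldolase, went from 8.58 ± 0.15 to 8.34 ± 0.10 (SD, n = 5 per group), a difference of -0.24 ± 0.08 (adjusted p = 0.145, and 0.0818 with the block). The probe set that Aldoa shares with Aldoart1 had -0.12. Bpgm, the red-cell enzyme that makes bisphosphoglycerate, differed by 0.20 ± 0.08 (adjusted p = 0.278) and was higher in 5 of 5 same-numbered pairs. Of 12 erythroid markers 4 were measured, with a mean level from 7.17 to 7.40 in controls and from 7.36 to 7.64 in knockouts. Among them Tfrc, the transferrin receptor, which many dividing cells also carry, rose by 0.70 ± 0.08 (adjusted p = 0.000434), and Slc4a1, the red-cell anion exchanger, had 0.22 ± 0.12 (adjusted p = 0.464, and 0.0461 with the block). The other two, Epb42 of the red-cell membrane and the erythroid factor Klf1, had 0.02 ± 0.08 and -0.00 ± 0.09, and both means of Klf1 were under 6.3. Whether red-cell content has a part in the value of Bpgm was not tested.

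The enzymes that nearly every cell uses had small changes. Tpi1, Gapdh, Pgk1 and Pkm differed by -0.03 ± 0.07, 0.08 ± 0.05, 0.00 ± 0.06 and 0.04 ± 0.06. The 95% interval of Gapdh ran from -0.04 to 0.20 and that of Pkm, the pyruvate kinase of most tissues, from -0.08 to 0.16. Pklr, the liver and red-cell pyruvate kinase, differed by 0.07 ± 0.05. Gapdh has 3 probe sets of its own and 7 shared with Gm12070; the shared ones changed by 0.03 to 0.09, and the lowest of its own by -0.07.

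For lactate, Ldha favours its formation and Ldhb its use, and Slc16a1 and Slc16a3 carry it across the membrane. None of the 5 members here, Ldhd included, was called by limma with or without the block. Ldha was measured at 8.62, 8.69, 8.54, 8.68 and 8.72 in controls and at 8.76, 8.73, 8.57, 8.67 and 9.15 in knockouts. Its difference of 0.13 ± 0.09 rested on knockout 5, and was 0.03 without that lung. In the same lung Ldhb was lowest, at 8.45 against 8.70 to 8.77 in the other knockouts. Slc16a1 differed by 0.15 ± 0.07 (adjusted p = 0.368) and was higher in 5 of 5 same-numbered pairs, and Slc16a3 by 0.10 ± 0.05. Slc16a7, a further lactate and pyruvate transporter that was not a member, fell by 0.96 ± 0.13 on the log2 scale (log2 change -0.96, adjusted p = 0.00102), from 8.91 ± 0.20 to 7.96 ± 0.26 (SD, n = 5 per group).

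Pyruvate dehydrogenase kinases switch the pyruvate dehydrogenase complex off, and the phosphatase Pdp1 switches it on. Pdk1 was measured at 8.42, 8.49, 8.43, 8.25 and 8.42 in controls and at 8.13, 8.19, 8.14, 7.96 and 8.35 in knockouts. Knockouts 1 to 4 lay below every control and knockout 5 above control 4. The difference was -0.25 ± 0.07 (SE, adjusted p = 0.0925). Pdk1 was called lower with the number as a block (adjusted p = 0.0314) and without knockout 5 (-0.30, adjusted p = 0.0256). It was not called with any other lung left out (limma adjusted p from 0.0628 to 0.191). Pdk2 differed by -0.16 ± 0.07 (adjusted p = 0.327), Pdk3 by -0.02 ± 0.08 and Pdk4, the kinase that rises in fasting, by 0.02 ± 0.12. The subunit genes Pdha1 and Pdhb differed by -0.12 ± 0.06 and 0.02 ± 0.06 and Pdp1 by -0.04 ± 0.07, and none of the 3 was called with or without the block.

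Pcx encodes pyruvate carboxylase, which refills the citric acid cycle and opens gluconeogenesis. It was measured at 9.33, 9.17, 9.34, 9.12 and 9.30 in controls and at 8.86, 8.73, 8.73, 8.53 and 8.75 in knockouts. Every knockout lay below every control. Pcx fell to 68.9% of its level in controls (log2 change -0.54 ± 0.07 SE, limma adjusted p = 0.000707), with -0.62 to -0.45 in the 5 same-numbered pairs. It was 1 of 35 members other than Eno3 whose groups did not overlap, beside 5.11% of all genes (2.44% higher and 2.66% lower). The call held without each lung in turn and under the other alternatives run (-0.57 to -0.49, adjusted p from 0.000284 to 0.00497).

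Isoforms were then contrasted within each lung. The difference of 2 log2 levels in the same lung was compared between the groups for 24 pairs of genes of the same enzyme, transporter or complex, which tests whether their changes were unequal. The pair of Eno2 and Eno3 was described above without a test. Of the other 23, 0 passed a two-sided exact permutation test after Benjamini-Hochberg adjustment and 6 had an unadjusted p under 0.05. The smallest p of this test is 0.00794, so at least 4 of the 23 pairs would have to reach it for any at that p to pass. Pfkl against Pfkm (-0.12) and Pdk1 against Pdk3 (-0.23) reached it, and their knockout lungs lay outside the control range (adjusted p = 0.0913 for each).

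By limma on the same differences 0 of 23 pairs were called without a block (smallest adjusted p = 0.0885) and 7 with the number as a block. The 7 were Slc2a3 over Slc2a4 (0.29, adjusted p = 0.0343), Hk1 over Hk2 (0.29, 0.0186), Pfkfb2 over Pfkfb3 (0.39, 0.0344) and over Pfkfb4 (0.33, 0.0186), Pgam1 over Pgam2 (0.43, 0.0344, near background), and Pdk1 under Pdk3 (-0.23, 0.0343) and under Pdk4 (-0.27, 0.0343). With values under 6.3 set to 6.3, the block called 6 pairs, and Pgam1 over Pgam2 was not among them (0.20, adjusted p = 0.185). Without knockout 5 the exact test called 4 pairs, Pfkl under Pfkm (-0.13), Pfkfb2 over Pfkfb3 (0.48), Pdk1 under Pdk3 (-0.24) and Pdk1 under Pdk4 (-0.42). Each had adjusted p = 0.0456 and stood at the smallest p that the fewer assignments without that lung allow. With fewer pairs at that p, none would have passed. Ldha against Ldhb had 0.18 with all lungs and 0.03 without knockout 5.

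**Figure D4:**
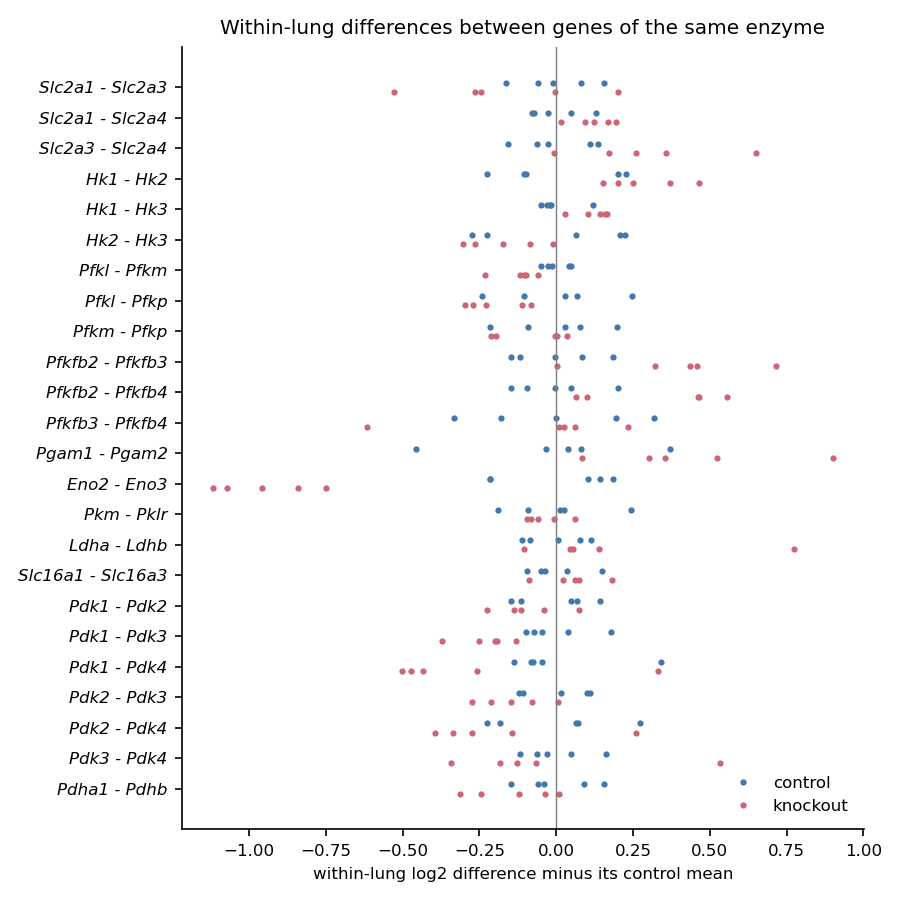
Within-lung log2 difference between 2 genes of the same enzyme, minus the mean of that difference in controls (horizontal axis), for 24 pairs, with 1 point per control or knockout lung. The knockout points of Eno2 minus Eno3 lie apart from the controls, with a mean of -0.95, and those of Pfkl minus Pfkm and Pdk1 minus Pdk3 lie outside their control ranges.

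Some members had levels that went with the lung's number. Slc2a1, Slc2a4, Hk2, Pfkfb2, Pfkfb3 and Pdk4 were lower in lungs 4 and 5 than in lungs 1 to 3 of both groups. These are 6 of 36 members (16.7%), beside 7.4% of all genes, and 1 of 36, Pdp1, was higher in lungs 4 and 5 of both groups, beside 6.28% of all genes. Slc2a1 was measured at 11.11, 11.05 and 10.94 in controls 1 to 3 and at 10.69 and 10.75 in controls 4 and 5, and at 11.11, 11.13 and 10.93 against 10.61 and 10.81 in the knockouts. Its range was 0.42 among controls and 0.52 among knockouts, while the group means differed by 0.01. Pdk4 ran from 9.22 to 9.72 in controls and from 9.16 to 9.77 in knockouts, with the lowest value in lung 5 of each group. The labels name no batch, and what the numbers share was not tested. This pattern was described after the values were seen.

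**Figure D5:**
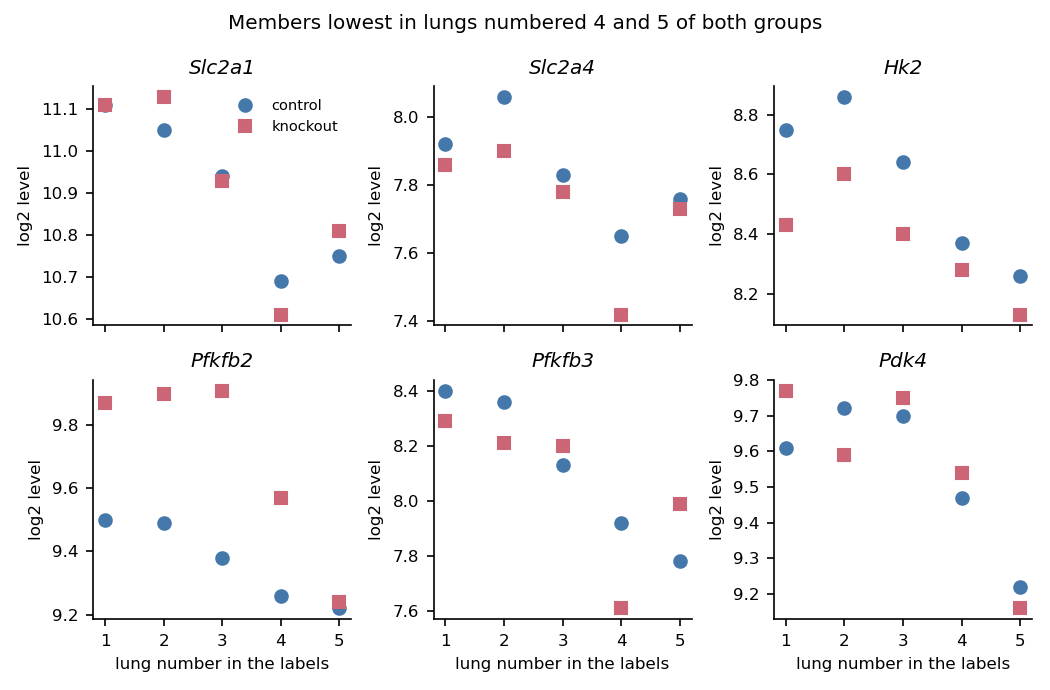
Log2 level (vertical axis) by the lung's number in the labels (horizontal axis) for the 6 members lower in lungs 4 and 5 of both groups, with 1 point per control (circle) or knockout (square) lung. For Slc2a1 the control and knockout lungs of a number lie within 0.08 of each other, while the range within each group is 0.42 or more.

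Of 102 measured genes around the pathway limma called 2 (1.96%, beside 3.12% of all genes), and 18 (17.6%, beside 13.5%) had an unadjusted p under 0.05. Of 20 measured genes of gluconeogenesis, fructose use and minor glycolysis isoforms, 0 rose and 1, Slc16a7, fell, with 5 at an unadjusted p under 0.05. Of 18 measured genes of the hypoxia pathway outside glycolysis, limma without a block called 0 higher and 1, Ak4, lower. Ak4, a mitochondrial adenylate kinase, fell by 0.31 ± 0.07 (log2 change -0.31, adjusted p = 0.0468). That call ended without any 1 of 9 lungs (all but knockout 5). Of the 18, 2 reached an unadjusted p under 0.05. The largest change of this list was that of Ddit4 (0.79 ± 0.25, limma adjusted p = 0.138). Ddit4 was called higher with the lung number as a block (adjusted p = 0.00329), where 4.72% of all genes were called. Without a block limma called 0 of 18 glycogen genes, 6 pentose phosphate genes and 11 genes of pyruvate entry. It also called 0 of 16 citric acid cycle genes and 13 regulators. In that order of lists, 4, 2, 1, 0 and 4 genes reached an unadjusted p below 0.05. The median changes of these lists lay between -0.04 (glycogen) and 0.13 (pentose phosphate), beside 0.00 over all genes. Of 9 measured markers of neuroendocrine cells, which are known for Eno2, limma called 2, beside 3.12% of all genes. An unadjusted p below 0.05 was reached by 3 of the 9, beside 13.5% of all genes. The block called 3, beside 4.72% of all genes, and added Scg2 (-0.24, adjusted p = 0.0392). The means of Scg2, 6.46 and 6.22, lay on either side of 6.3. Pcsk1 rose (0.43, adjusted p = 0.0265) from a mean of 5.92 under 6.3, while Ddc fell by 0.47 (log2 change -0.47, adjusted p = 0.0355). The call of Pcsk1 ended once values below 6.3 were set to it (adjusted p = 0.549). It also ended without control 1, 3 or 5, or knockout 2 or 4 (adjusted p from 0.0542 to 0.0742). The call of Ddc ended with values floored (adjusted p = 0.0954) and without any 1 of 9 lungs (all but knockout 5; 0.0515 to 0.0892). Their mean level ran from 6.44 to 6.51 in controls and from 6.41 to 6.57 in knockouts, and their part in the value of Eno2 was not tested.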

How the data were processed

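RNA of 10 whole lungs (5 control, 5 knockout) was measured on 1 array each. Total RNA, 100 ng per lung per the labels' protocols, was primed with poly(T) and amplified. The deposited values are log2 probe set levels made by the authors; the submitters' processing notes name oligo, RMA and limma without versions. RMA makes sample distributions alike, so a shift shared by most genes cannot be seen. For the genome build and any row filter, the sources used here give nothing. Of 24888 probe sets, 18922 carried 1 symbol in the platform's annotation and gave 17919 genes; 5966 with several or no symbol were left out. Sample medians lay between 7.428 and 7.461, correlations between 0.9851 and 0.9953. For arrays the number of lungs limits precision.

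The groups were compared with limma 3.58.1 in R 4.3.3 (lmFit, eBayes, two-sided); p-values were adjusted by Benjamini-Hochberg across the 17919 genes and called under 0.05. The code was tested on simulated data. Isoform pairs were compared by exact permutation over 252 assignments, and over fewer where a lung was left out. All members could be named, with Hdac3, the neighbours of Eno3, the called genes of the pathway lists (up to 4), and the highest and the called genes of the marker lists (up to 3); other names were chosen after their values were seen, among them Eno4, Ckm and the genes called with the block. Members, lists and alternatives were chosen with earlier results of these data known.

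Lungs of both groups are numbered 1 to 5, without a label for what equal numbers have in common. Deviations of same-numbered lungs from their group means correlated at 0.154 to 0.485, and those of different numbers had a median of -0.0829 but reached 0.33, above 3 of the 5 same-number values. Every same-number value was over 0.1, so the numbers were taken to pair the lungs; the basis is the values, with no label behind it. Alternatives were the number as a block, other probe set rules, a level filter, a floor at the 20th percentile (6.3), another variance prior, 2 other scalings and each lung left out.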

Additional observations from a re-analysis of the deposited data

Results flagged for a closer look

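In 72 groups of 5 lungs (36 members in each group), 7 had a lung whose gap to the nearest other exceeded Dixon's 95% limit of 0.71 of the range; chance gives about 1 in 20. Knockout 5 was highest for Pfkl (9.87, others 9.70 to 9.74) and lowest for Ldhb (8.45, others 8.70 to 8.77). Knockout 2 was highest for Hk1 (8.81, others 8.55 to 8.62). Knockout 3 was lowest for Pfkp (8.59, others 8.78 to 8.84). Knockout 4 was lowest for Pdk2 (9.10, others 9.37 to 9.45), and control 1 was highest for Pdk2 (9.63, others 9.44 to 9.49). Control 2 was lowest for Pklr (6.65, others 6.82 to 6.87). Of these 6 genes, limma without a block called 0 with all 10 lungs at the settings of the report; Pfkl (adjusted p = 0.0778) and Pdk2 (0.327) had an unadjusted p below 0.05. Pfkl was called under 4 alternatives that keep all lungs, and of the fits with a lung left out only without knockout 5.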

How the results depend on the processing

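Pcx was called lower under all 19 alternatives, and the difference of Eno3 ran from 1.07 to 1.15. Of the 35 other members, 30 were not called under any setting, and 10 uncalled members, each with a change of at most 0.06, changed sign under some alternative. With the replicate number as a block, 409 genes were higher and 437 lower (276 and 283 without it), and with lungs 1 to 3 and 4 and 5 as the blocks (an alternative added once values had been seen) 455 and 455. Leaving out each lung gave 189 to 382 higher and 202 to 317 lower, both highest without knockout 5. Members called higher, 0 at first, were 1 with either block and 0 to 1 with a lung left out (1 without knockout 5); members called lower, 1 at first, were 3 with the replicate block, 2 with the set block, with values floored, among genes above the median level and with the trend and robust prior (Pfkl being the second, at adjusted p = 0.0485, 0.0471, 0.0406 and 0.0437), and 1 to 3 with a lung left out (3 without knockout 5). The genes called in the pathway lists (102 measured) were 2 at first, 6 with the replicate block, 7 with the set block and 1 with values floored. They were 5 among genes above the median level, 4 with the trend and robust prior and 1 to 8 with a lung left out. Genes called in the cell type lists were 4 at first, 9 and 8 with the 2 blocks and 2 to 6 with a lung left out. Over all genes the called share was 3.12% at first, 4.72% with the replicate block and 5.08% with the set block. Isoform pairs called were 0 at first, 7 with the replicate block, 6 with that block on floored values (added after the values were seen) and 0 to 4 with a lung left out (4 without knockout 5). Other scalings moved the median gene by at most 0.011. The cause of these shifts was not tested. Members near 6.3 (Pgam2, Hk3) are limited by signal over background.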

Other observations

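With the lung number as a block, limma called 6 of the 102 measured genes around the pathway, beside 4.72% of all genes. Without the block it called 2 of the 102, beside 3.12% of all genes. The genes called only with the block are given here as a description. Ddit4, a gene of the hypoxia list and a stress-induced inhibitor of growth signalling, had a change of 0.79 ± 0.25. Its means were 9.11 and 9.89 (limma adjusted p = 0.138, and 0.00329 with the block). Klf15, a transcription factor of fasting metabolism, had -0.36 ± 0.15 (adjusted p = 0.298, and 0.017 with the block). Me1, the cytosolic malic enzyme, which makes pyruvate and NADPH, had 0.37 ± 0.12 (adjusted p = 0.161, and 0.0396 with the block). Phka1, a regulatory subunit of glycogen phosphorylase kinase, had -0.21 ± 0.06 (adjusted p = 0.0764, and 0.0269 with the block). Ddit4 and Klf15 were lower in lungs 4 and 5 than in lungs 1 to 3 of both groups: Ddit4 stood at 8.80 and 8.60 in controls 4 and 5 and at 9.64 and 9.09 in knockouts 4 and 5.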
